A study of Mus musculus with 8 samples.

Results

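The subject is the H3K27ac landscape around Sox9, taken as all acetylated regions in a fixed interval of chromosome 11 that runs from 111600000 to 112950000 in build mm9, which is 1.35 Mb. The 5′ end of Sox9 was taken near 112643500, so that 1043.5 kb of the interval lie upstream and 306.5 kb downstream. All 109 peaks of the 8 libraries that overlap it were merged to 20 regions, of 33920 regions and 195577 peaks in the whole series. Distances below are from the 5′ end to the nearer edge of a region. No mm9 gene models were used. In RefSeq's GRCm38.p6 table, used for names only, 7 genes stand between Kcnj2 and Sox9, of which 5 are long noncoding RNAs and 1 is protein-coding, and 9 long noncoding RNAs stand between Sox9 and Slc39a11. The nearest on either side are BC006965 and Gm11681.

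Sox9 encodes an SRY-related transcription factor that sets cell fate in cartilage, testis and several epithelia. In the pancreas it marks progenitors and, in the adult, duct and centroacinar cells, and it is known for its part when acinar cells take on ductal traits. The gene lies in a wide stretch with few other genes, and remote enhancers for other tissues have been mapped far upstream of it. Acetylation of histone H3 at lysine 27 (H3K27ac) marks active promoters and enhancers, so a peak of it can show where such elements are in use.

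The assay was ChIP-seq for H3K27ac (sequencing of the DNA that an antibody to the mark brings down), done in the mouse acinar line 266-6, which derives from the pancreas. All cells were transfected for 48 h with 25 nM siRNA and starved of serum overnight before an 8 h treatment. The control group received a non-targeting siRNA and a vehicle of 0.1% BSA, and the EGF group the same siRNA and EGF at 40 ng/ml, a ligand of the EGF receptor. The knockdown group received siRNA to Arid1a, which encodes a subunit of the chromatin remodeller SWI/SNF, and vehicle, and the knockdown with EGF group that siRNA and EGF. Each group has 2 libraries. Knockdown and intact name the siRNA given: the level of Arid1a, and whether the siRNAs match the mouse gene, were not analysed here. Acinar and ductal marker loci were not analysed here either. The labels leave unsaid whether the duplicates are separate cultures. The p-values therefore speak only of variation among these libraries, and that variation may be technical.

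Each library came as a list of peaks, and read depth is unknown. Lists held 22030 to 28281 peaks covering 33.9 to 48.7 Mb. Control library 1 stood apart from its duplicate, with 22167 peaks over 34.3 Mb against 28281 over 47.2 Mb, and it held 10 peaks around Sox9 against 18. Leaving out either control library leaves 1 control, which the model then assumes to vary like the other groups, and without library 2 that 1 control is the library that stood apart. The EGF lists (22361 and 23080 peaks) and the lists of knockdown with EGF (22030 and 23256) were of like length.

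The interval held 10 to 18 peaks a library, and this density was not compared with that of the genome. A peak was found in all 8 libraries at 8 of the 20 regions (40%, against 49.0% of all regions), and in a single library at 4 (20%, against 17% of all). Most peaks were weak. In each library 2 to 5 of them had a fold enrichment above the median of their own list, where fold enrichment is the authors' ratio of a peak over the caller's background. Within 100 kb of the gene there were 3 regions, over the 5′ end, 28.2 kb downstream and 58.3 kb upstream. A gap of 294.6 kb without any peak followed upstream and one of 224.7 kb downstream. Beyond these gaps lay 9 regions upstream, from 354 to 964 kb away, and 8 regions downstream, close together between 254 and 303 kb.

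**Figure D1:**
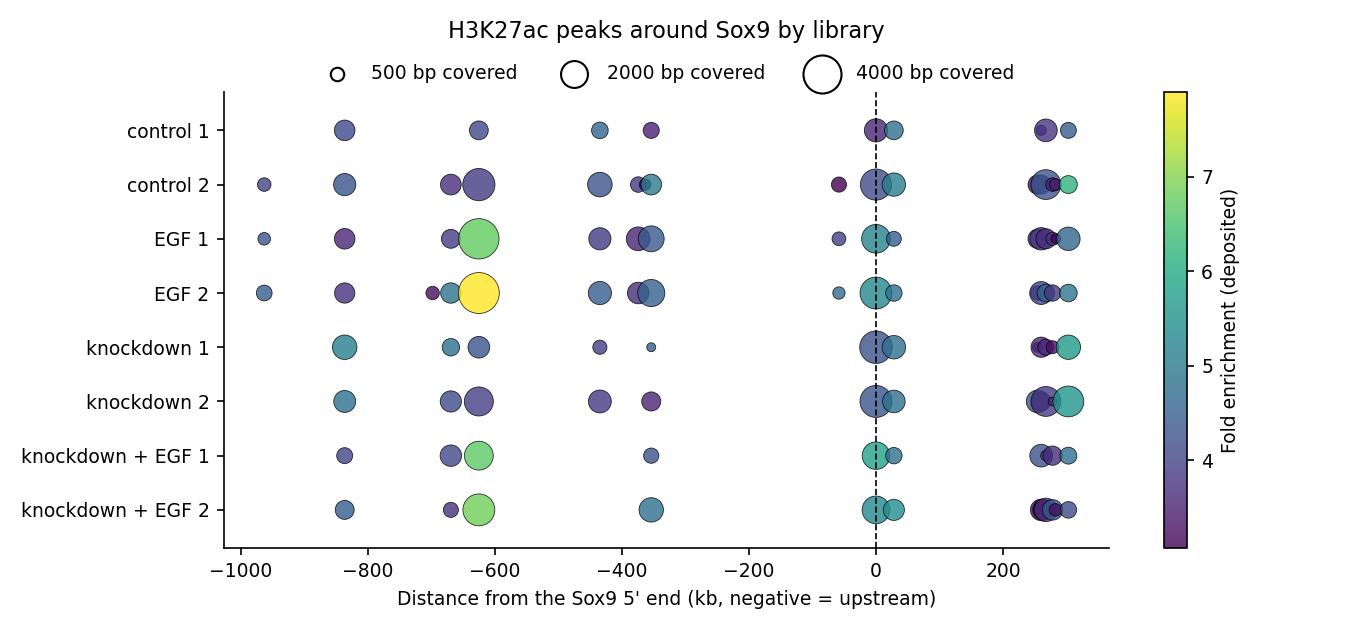
Each circle is a region with a peak in that library, placed by its distance in kb from the Sox9 5′ end (dashed line). The circle's area gives the covered length in bp and the colour the deposited fold enrichment. The largest circles stand 626 kb upstream in the EGF libraries, and the brightest at the same place in the EGF and the knockdown with EGF libraries.

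The region over the Sox9 5′ end was acetylated in every library, from 112642259 to 112645743. Peaks covered 1492 and 2682 bp in control cells, 2279 and 2816 bp with EGF, 2926 and 2832 bp with knockdown, and 2093 and 2122 bp in knockdown with EGF. The groups' means were 2087 ± 841, 2548 ± 380, 2879 ± 66.5 and 2108 ± 20.5 bp (SD, n = 2 each). Knockdown had the widest mean, followed by EGF, and the other groups were the narrowest. The knockdown pair lay above all other libraries (2832 against 2816 bp for the nearest values), whereas EGF and control overlapped. Over all regions, knockdown lay above control without overlap at 27.8%, and a pair above all other libraries was not counted.

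None of these differences in width passed the test as planned. Covered length was compared with limma on log2(covered bp + 200) over the 28146 regions that had peaks in 2 or more libraries, adjusted by Benjamini-Hochberg with a threshold of 0.05. At the 5′ end the EGF difference was 0.31 (95% interval -0.29 to 0.91, limma adjusted p = 0.554) in intact cells and -0.42 (-1.02 to 0.19, limma adjusted p = 0.366) in knockdown cells. Without control library 1 the first of these was -0.076, and without control library 2 it was 0.69. Knockdown gave 0.48 (-0.12 to 1.08, limma adjusted p = 0.498) without EGF and -0.24 (-0.85 to 0.36, limma adjusted p = 0.855) with it. The EGF effect was lower in knockdown than in intact cells by an interaction of -0.72 (-1.58 to 0.13), at a limma adjusted p of 0.660. These last values depended on which control library was kept. Without control library 1 the knockdown difference without EGF was 0.095 (limma adjusted p = 0.893) and the interaction -0.34 (limma adjusted p = 0.660). Without control library 2 they were 0.86 (limma adjusted p = 0.0287) and -1.11 (limma adjusted p = 0.0486). The deposited scores of this peak were 43 to 57 in EGF-treated and 21 to 40 in vehicle libraries, so counting only peaks scoring above the median of 40 keeps the EGF-treated peaks alone and says nothing of width.

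Fold enrichment at the 5′ end, in contrast to width, separated the libraries by EGF. It was 3.55 and 4.17 in control and 4.28 and 4.34 in knockdown libraries, against 5.19 and 5.30 with EGF and 5.81 and 5.34 in knockdown with EGF. Every EGF-treated library lay above every vehicle library. Within its own list the peak stood at the 60.9th to 64.6th percentile of fold in EGF-treated libraries and at the 12th to 43.4th in vehicle libraries. The lists differ in length and fold is relative to each list's own background, so these values are a description, with no test.

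The edges of this peak did not separate the libraries by EGF. In EGF-treated libraries it reached 837 to 1241 bp upstream of the 5′ end, and in vehicle libraries 682 to 856 bp. Downstream, into the gene, it ended after 1144 to 1574 bp with EGF. In vehicle libraries it ended after 1825, 1975 and 2243 bp, except for control library 1, where it ended after 708 bp. The peak thus had a higher deposited fold in EGF-treated libraries. On the gene side it was shorter with EGF than in vehicle libraries other than control library 1, where it was the shortest of all. The edges were not compared over all regions, so these values are a description.

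Of the 8 regions with a peak in all libraries, 2 had a fold in the 4 EGF-treated lists that did not overlap with that in the 4 vehicle lists, and both were higher. Over the 16607 such regions of the series, 6.11% were higher in this way and 17.5% lower. The other of the 2 was the region 626 kb upstream. At the remaining 6, fold ranges overlapped, as at the region 28.2 kb downstream with 4.46 to 5.44 in EGF-treated and 4.79 to 5.09 in vehicle lists. By Arid1a state, 0 of the 8 were apart in either direction, against 8.70% higher and 0.891% lower with knockdown over all such regions.

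**Figure D2:**
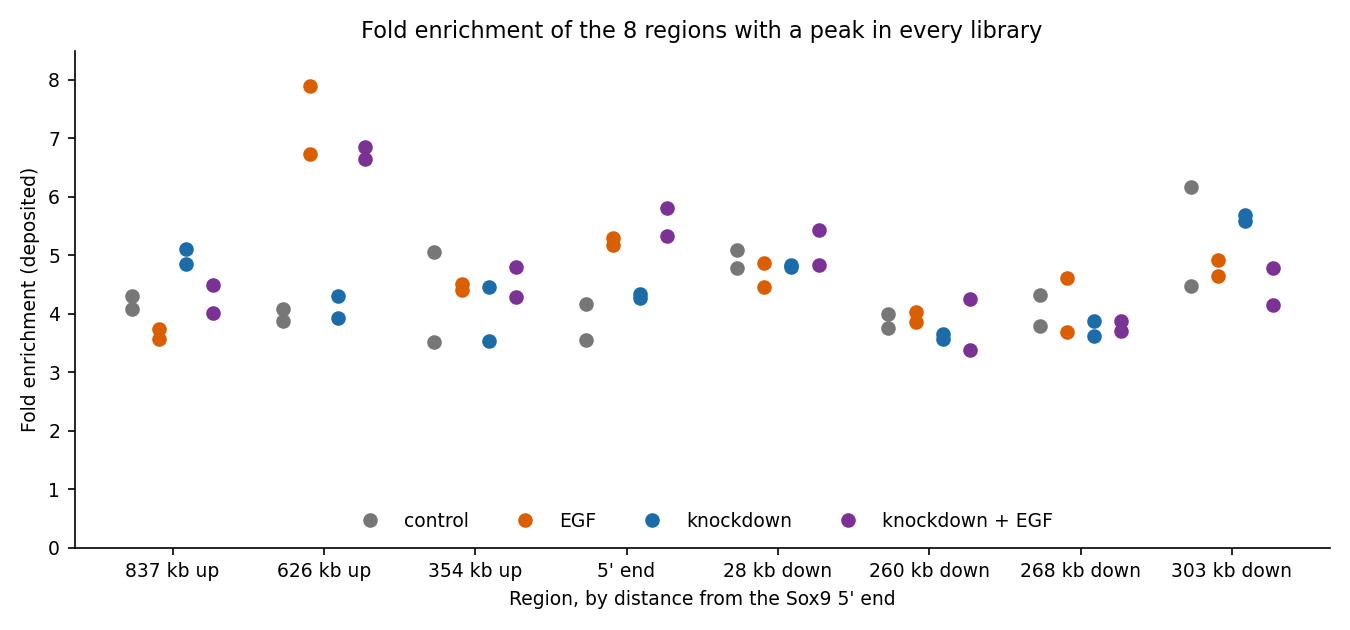
The deposited fold enrichment of each library (points, coloured by group) is plotted for the 8 regions with a peak in every library, ordered along the chromosome. At the 5′ end and 626 kb upstream the 4 EGF-treated points, orange and purple, lie above the 4 vehicle points.

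The region 626 kb upstream, from 112013304 to 112017975, had the widest mean over all libraries in the interval (2714 bp) and the highest mean percentile of fold (59.3). Neither rank held in vehicle libraries. The 5′ end was wider there, at means of 2087 against 1926 bp in control and 2879 against 1813 bp with knockdown. Vehicle folds, 3.88 to 4.31, lay below those 28.2 kb downstream, 4.79 to 5.09. In each EGF library 1 unbroken peak of 4495 or 4630 bp covered the region 626 kb upstream. Its fold was 6.74 and 7.89, at the 87.5th and 91.8th percentile of their lists. Control libraries held 2 separate peaks there, of 235 and 745 bp and of 1013 and 1859 bp, with highest folds of 4.08 and 3.88. Knockdown library 1 held only the gene-side peak, of 1294 bp, and library 2 peaks of 628 and 1704 bp, with highest folds of 4.31 and 3.94.

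In knockdown with EGF the gene-side peak measured 2297 and 2456 bp, with folds of 6.65 and 6.85, and the outer peak was missing in library 1 and 357 bp wide in library 2. Fold was therefore 6.65 to 7.89 in EGF-treated lists and 3.88 to 4.31 in vehicle lists. The unbroken form was seen in the EGF libraries and in no other.

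Covered length over this region was 4562.5 ± 95.5 bp with EGF, 1926 ± 1338 bp in control, 1813 ± 734 bp with knockdown and 2555 ± 365 bp in knockdown with EGF (SD, n = 2 each). The EGF libraries lay above all others, a pattern not counted over all regions. Over all regions, EGF lay above control without overlap at 10.3%, and knockdown with EGF below EGF at 14.2%. Under EGF the knockdown difference was -0.80 on the log2 scale (95% interval -1.94 to 0.34, limma adjusted p = 0.697). The interaction was -0.83 (-2.44 to 0.79, limma adjusted p = 0.828), so the EGF effect was not shown to differ between Arid1a states. The difference of EGF from control was 1.32 ± 0.47 on the log2 scale (SE, limma adjusted p = 0.204). The mean EGF effect over both Arid1a states was 0.91 ± 0.33 (SE, limma adjusted p = 0.115), beside a median of -0.25 over all regions tested. Neither passed as planned, but the mean effect passed on lists of equal length (1.16, limma adjusted p = 0.0180), after quantile normalization (1.13, limma adjusted p = 0.0310) and without control library 2 (1.25, limma adjusted p = 0.0273). EGF against control passed on lists of equal length (1.61, limma adjusted p = 0.0290) and without control library 2 (2.01, limma adjusted p = 0.0460). Without control library 1 the mean effect was 0.56 (limma adjusted p = 0.121) and EGF against control 0.63 (limma adjusted p = 0.301).

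The region 435 kb upstream, from 112206885 to 112208606, was the only one of the 16 tested regions that limma called in any comparison. It was covered over 767 and 1669 bp in control, 1359 and 1486 bp with EGF, and 553 and 1448 bp with knockdown. Neither library of knockdown with EGF had a peak there. With EGF in knockdown cells it fell, with a log2 difference of -2.48 ± 0.48 (SE, limma adjusted p = 0.0395). This was 1 of 16 tested regions around Sox9, where 6.00% of all regions were called lower in that comparison.

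In intact cells the EGF difference at the same place was 0.27 (95% interval -0.91 to 1.45, limma adjusted p = 0.809), and -0.21 without control library 1 and 0.75 without control library 2. The interaction was -2.75 (-4.41 to -1.08, limma adjusted p = 0.249), so the EGF effect was not shown to differ between Arid1a states. Under EGF, the knockdown difference was -3.02 (-4.19 to -1.84), at a limma adjusted p of 0.0716. Here the call depended on the setting, as it passed with a pseudocount of 50 bp (limma adjusted p = 0.0283), on lists of equal length (0.0455) and without control library 2 (0.0484). The fall with EGF in knockdown cells kept its call without either control library and lost it without any other single library, at values of -3.04 to -1.91. It was also lost after quantile normalization (-1.53, limma adjusted p = 0.211), with a pseudocount of 1000 bp (-0.96, limma adjusted p = 0.0970) and when a peak had to cover 50% of the region (-1.52, limma adjusted p = 0.564). Fold at this region was modest where a peak was present, at 3.85 to 4.60.

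Comparing knockdown with intact cells under EGF, peaks were absent from both knockdown libraries at 4 of the 20 regions where both EGF libraries had one, against 2.34% of all regions. No region of the interval had the reverse pattern, against 2.02%. Besides the region 435 kb upstream these were the regions 964, 375 and 58.3 kb upstream. All 4 lay upstream of the gene. Their peaks were weak, with scores of at most 34 in any library, so none of them remains when only scores above the median of 40 are counted. The EGF and the knockdown with EGF lists were of like length, as given above.

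At 375 kb, from 112267436 to 112268997, EGF libraries were covered over 1562 and 1285 bp, control libraries over 0 and 665 bp, and no knockdown library had a peak with or without EGF. The difference under EGF was -3.02 ± 0.68 (SE, limma adjusted p = 0.146). That of EGF from control was 1.96 ± 0.68 (SE, limma adjusted p = 0.199). The first passed without either control library, after quantile normalization and when a peak had to cover 50% of the region. The second did so without control library 2 (3.02) and in the last 2 of these settings, and without control library 1 it was 0.90 (limma adjusted p = 0.142). Folds were low, from 3.55 to 3.88, at the 10.6th to 30.7th percentile of the lists.

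The region 964 kb upstream, from 111679233 to 111679919, was covered over 439 and 687 bp with EGF and over 0 and 508 bp in control, with no peak in knockdown libraries. At 58.3 kb, from 112584091 to 112585160, EGF libraries had 527 and 419 bp and control libraries 0 and 634 bp, again with none in knockdown libraries. Under EGF the differences were -1.91 ± 0.61 (SE, limma adjusted p = 0.304) and -1.75 ± 0.66 (SE, limma adjusted p = 0.407). Both passed without control library 2 (limma adjusted p = 0.0401 and 0.0341). At 58.3 kb the call was also made without control library 1 and on lists of equal length. These 3 regions share one pattern, with peaks in control library 2 and both EGF libraries and none in the other 5 libraries.

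By covered length under EGF, both knockdown libraries were below both intact ones at 10 of the 20 regions, against 14.2% of all regions, and above them at 1 region, against 17.3%. The 10 contain the 4 regions just described. Among the others were the 5′ end (2093 and 2122 against 2279 and 2816 bp) and the region 354 kb upstream, from 112287393 to 112289494, with 643 and 1646 against 1851 and 2038 bp. Limma called 0 of the 16 tested regions in this comparison (smallest adjusted p = 0.0716), where 0.661% of all regions were called. At an unadjusted p under 0.05 there were 4 of the 16, beside 10.8% of all regions. Their median difference was -0.42 on the log2 scale, beside 0 over all regions tested. Regions of one locus share their libraries and are not independent of each other.

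**Figure D3:**
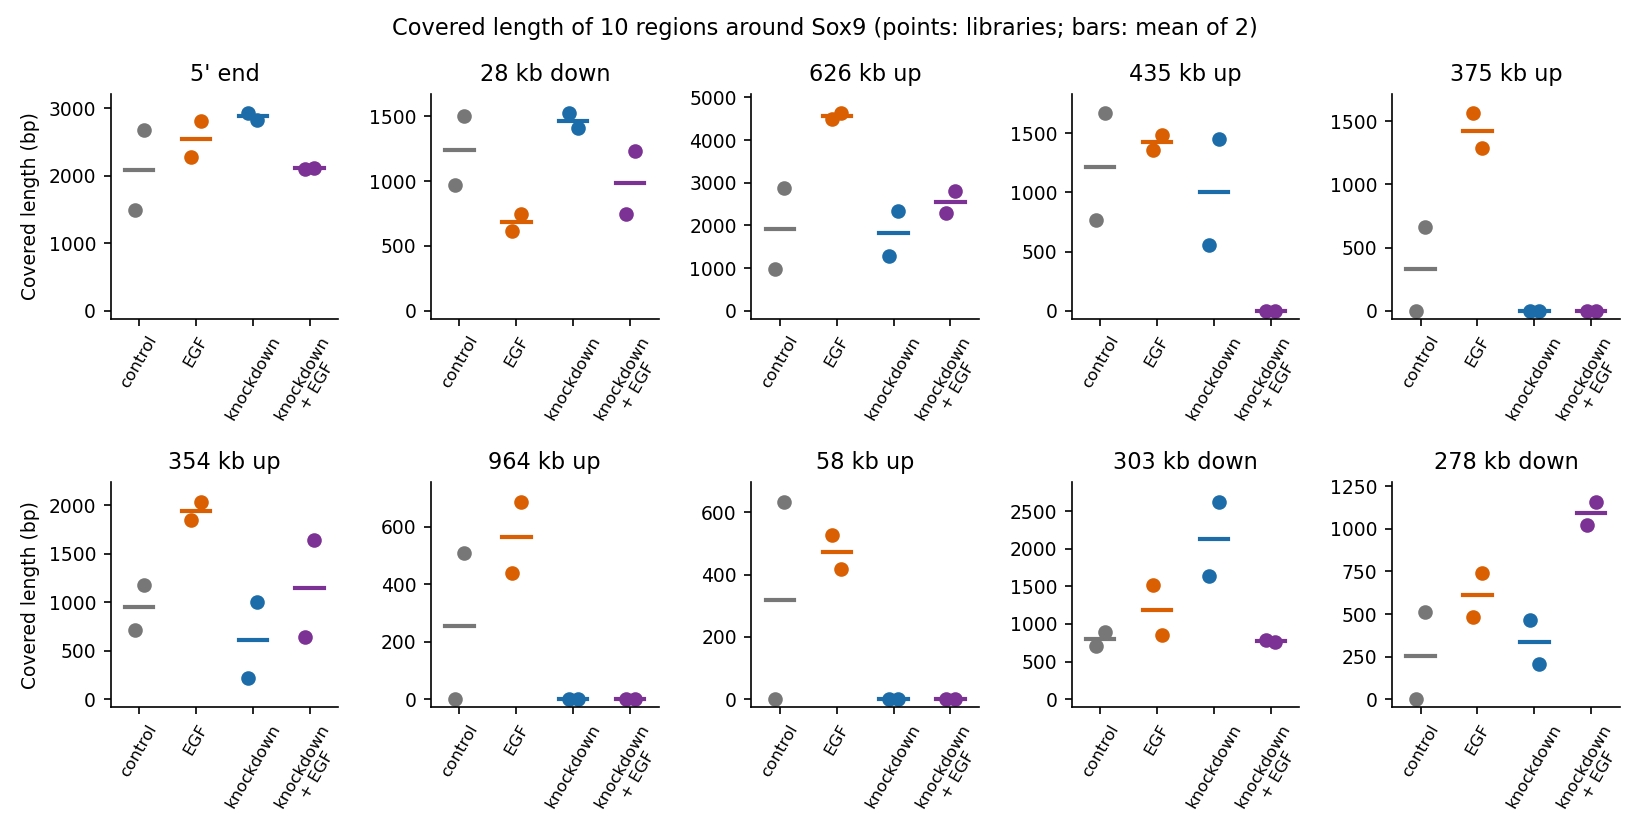
Covered length in bp is shown for 10 regions named by their distance from the Sox9 5′ end, with a point for each library and a bar at the mean of 2. At 435, 375, 964 and 58 kb upstream both libraries of knockdown with EGF are at 0 while both EGF libraries are not.

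The 28.2 kb region downstream, from 112671680 to 112673223, had a peak in all 8 libraries and was narrower with EGF in both Arid1a states. It was covered over 971 and 1503 bp in control and 618 and 747 bp with EGF, without overlap. In knockdown cells the values were 1523 and 1408 bp without and 746 and 1230 bp with EGF, again without overlap. Over all regions, EGF lay below vehicle without overlap at 24.2% in intact and 43.1% in knockdown cells. The mean EGF effect was -0.60 ± 0.20 (SE, limma adjusted p = 0.0939), beside the median of -0.25 over all regions, and did not pass. Its folds, 4.46 to 5.44, lay between the 45.6th and 63.7th percentile, so that it was among the more enriched places of the interval.

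The last region downstream, 303 kb away from 112946572 to 112949194, was widest in knockdown cells without EGF. It was covered over 1635 and 2623 bp there, against 704 and 888 bp in control, 1520 and 857 bp with EGF, and 791 and 759 bp in knockdown with EGF. The difference of knockdown from control was 1.2 ± 0.31 (SE, limma adjusted p = 0.162) and that of EGF from vehicle in knockdown cells -1.22 ± 0.31 (SE, limma adjusted p = 0.0748). The interaction was -1.67 ± 0.44 (SE, limma adjusted p = 0.280). None passed. The knockdown pair lay above all other libraries, a pattern not counted over all regions. Over all regions, knockdown lay above control without overlap at 27.8%, and EGF below vehicle in knockdown cells at 43.1%.

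Some downstream regions went the other way with EGF. At 278 kb, from 112921668 to 112923013, the values were 0 and 513 bp in control, 483 and 739 bp with EGF, 466 and 208 bp with knockdown, and 1023 and 1159 bp in knockdown with EGF. This was the 1 region where both knockdown libraries were wider than both intact ones under EGF, and its mean EGF effect was 1.2 ± 0.45 (SE, limma adjusted p = 0.126). That effect passed on lists of equal length (2.34, limma adjusted p = 0.00336), after quantile normalization (1.98, limma adjusted p = 0.00961) and without control library 2 (1.65, limma adjusted p = 0.0252), and was 0.74 without control library 1 (limma adjusted p = 0.109). At 260 kb, from 112903679 to 112905130, the values were 283 and 997, 1390 and 1452, 1135 and 989, and 1427 and 1280 bp in the same order. Both EGF pairs there lay above their vehicle pairs. Over all regions this held at 10.3% in intact and 5.31% in knockdown cells. The mean effect was 0.70 ± 0.29 (SE, limma adjusted p = 0.151). That call was made after quantile normalization (0.93, limma adjusted p = 0.0214) and without control library 2 (1.02, limma adjusted p = 0.0111), whereas without control library 1 the effect was 0.37 (limma adjusted p = 0.0599).

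The most remote region with a peak in all libraries lay 837 kb upstream, from 111805020 to 111806672. It was covered over 1170 and 1362 bp in control and 1168 and 1134 bp with EGF (log2 difference -0.11, 95% interval -0.59 to 0.36). In knockdown cells it was covered over 1653 and 1329 bp without EGF and 706 and 996 bp with it, a difference of -0.69 ± 0.20 (SE, limma adjusted p = 0.0955). The region 268 kb downstream, from 112911119 to 112913829, was among the 5 widest by mean covered length (1356 bp over 8 libraries) but spread widely within groups. Its values were 1425 and 2462, 1111 and 858, 709 and 2468, and 299 and 1519 bp in the same order as above.

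**Figure D4:**
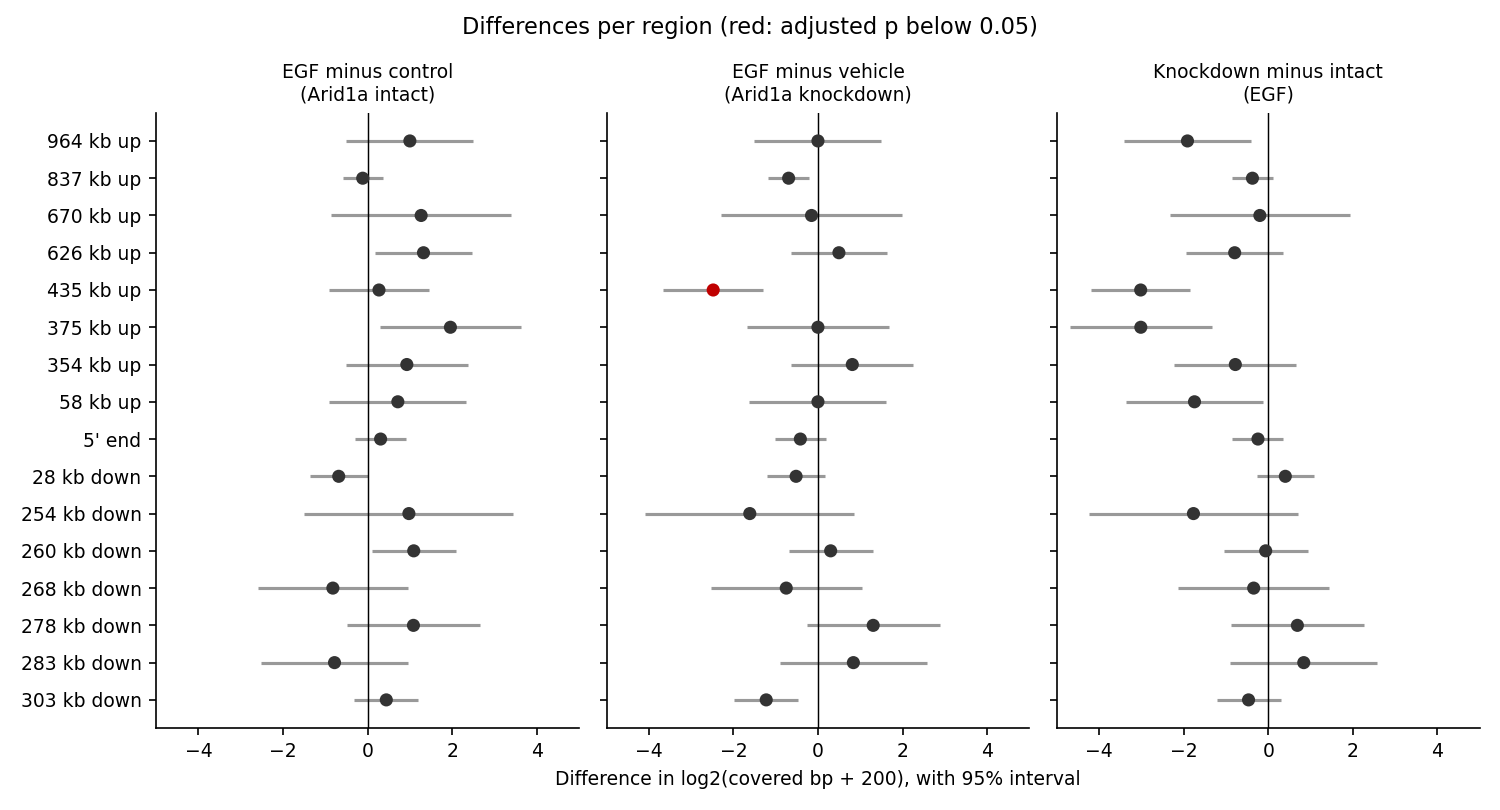
For the 16 tested regions, ordered along the chromosome, points give the difference in log2(covered bp + 200) and lines its 95% interval, in 3 comparisons. The 1 red point, 435 kb upstream in knockdown cells, passed the threshold, and upstream points in the right panel lie at or below 0.

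EGF against control in intact cells gave 0 calls around Sox9 (smallest limma adjusted p = 0.199), where 3.95% of all regions were called, and 4 of 16 at an unadjusted p under 0.05, beside 18.3% of all. No region was gained or lost by peak presence, against 2.00% and 4.26% of all regions. By covered length both EGF libraries were above both control libraries at 4 of the 20 regions and below them at 3, against 10.3% and 24.2% of all regions. Differences were above 0 at 12 of the 16 regions, with a median of 0.82 beside -0.14 over all regions. This direction rested on control library 1, since without it 7 of 16 were above 0 and the median was -0.10, beside -0.30 over all. Without control library 2, limma called 6 of 15 regions, against 5.29% of all, each higher with EGF, at 964, 670, 626, 375 and 58.3 kb upstream and 260 kb downstream.

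EGF against vehicle in knockdown cells gave 1 call of 16, as described, where 6.62% of all regions were called. After quantile normalization there was also 1 call, but at another region, 278 kb downstream and higher with EGF. Lists of equal length gave both of these calls. With only scores above the median of 40 neither was made. The calls were then the 5′ end, higher as the limit itself fixes, and the region 837 kb upstream, lower. By presence 0 regions were gained and 1 was lost, against 0.996% and 8.40% of all regions, and by covered length 2 of the 20 were higher and 6 lower without overlap, against 5.31% and 43.1%. Knockdown against control without EGF gave 0 calls (smallest limma adjusted p = 0.162; 1 of 16 at an unadjusted p under 0.05, beside 12.7% of all), where 1.37% of all regions were called, and 0 regions gained or lost by presence, against 3.04% and 0.778%. By covered length 2 of the 20 were higher and 0 lower without overlap, against 27.8% and 5.46% of all regions. The mean EGF effect gave 0 calls (5 of 16 at an unadjusted p under 0.05, beside 34.0% of all) with 13.0% called over all regions. The mean knockdown effect also gave 0 by limma (4 of 16 at an unadjusted p under 0.05, beside 17.9% of all), with 0.352% called over all. For the interaction 0 of 16 were called (2 at an unadjusted p under 0.05, beside 8.97% of all), and 0% of all regions. These comparisons share their libraries, so their calls are not independent.

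Summed over the interval, covered length was 8509 and 20885 bp in control, 21085 and 21363 bp with EGF, 13223 and 19281 bp with knockdown, and 11296 and 15986 bp in knockdown with EGF. Over both Arid1a states it was 17433 ± 4780 bp with EGF, and 15475 ± 5697 bp in vehicle (SD, n = 4 each; exact permutation, two-sided, p = 0.629). Knockdown libraries had 14947 ± 3472 bp and intact ones 17961 ± 6304 bp (SD, n = 4 each; exact permutation, two-sided, p = 0.400). The smallest p that 4 against 4 allow is 0.0286. Without control library 1 the EGF difference was -364 bp and the knockdown difference -6165 bp, and without control library 2 they were 3762 and -2039 bp.

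As a share of all covered sequence, the interval held 0.0248% and 0.0443% in control and 0.0622% and 0.0602% with EGF. It held 0.0285% and 0.0396% with knockdown and 0.0330% and 0.0434% in knockdown with EGF. The EGF libraries lay above all others. This share also falls as the rest of a list covers more. Control library 2 covered 20885 bp of the interval, against 21085 and 21363 bp with EGF. Its whole list covered 47.2 Mb, against 33.9 and 35.5 Mb. With EGF the share was 0.0497% ± 0.0140, and in vehicle 0.0343% ± 0.00915 (SD, n = 4 each; exact permutation, two-sided, p = 0.143). It was 0.0361% ± 0.00666 with knockdown and 0.0479% ± 0.0173 in intact cells (SD, n = 4 each; exact permutation, two-sided, p = 0.257), and without control library 1 that difference passed at the smallest p of 4 against 3 (-0.0194 percentage points, exact permutation p = 0.0286).

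Split by distance, the covered length of the EGF libraries lay above that of all others only beyond 100 kb upstream, which was not tested. Beyond 100 kb upstream, peaks covered 11866 and 12910 bp with EGF, 3634 and 9813 bp in control, 4561 and 7356 bp with knockdown, and 4917 and 6083 bp in knockdown with EGF. Beyond 100 kb downstream the EGF libraries, at 5795 and 4471 bp, lay within the range of 2412 to 7685 bp of the others. Within 100 kb of the gene they had 3424 and 3982 bp, within 2463 to 4819 bp of the others. The share of the interval's covered length that lay within 100 kb was 28.9% and 23.1% in control, 16.2% and 18.6% with EGF, 33.6% and 22.0% with knockdown, and 25.1% and 21.0% in knockdown with EGF. It was 20.2% ± 3.79 with EGF and 26.9% ± 5.43 in vehicle (SD, n = 4 each; exact permutation, two-sided, p = 0.114). With knockdown it was 25.4% ± 5.75 and in intact cells 21.7% ± 5.58 (SD, n = 4 each; exact permutation, two-sided, p = 0.429). Neither difference passed.

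**Figure D5:**
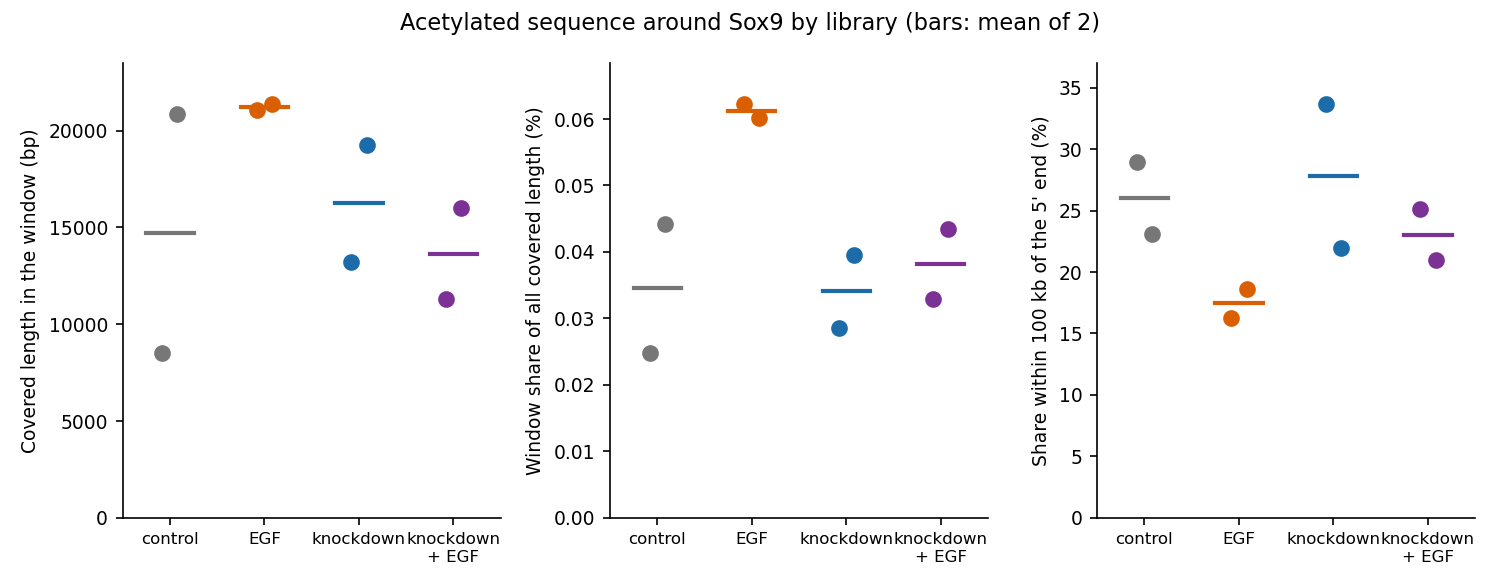
The panels give, for each library (points) and group (bars at the mean of 2), the covered length around Sox9 in bp, its percent of all covered length, and the percent of it within 100 kb of the 5′ end. The EGF libraries are the highest in the middle panel, at 0.0622% and 0.0602%, and the lowest in the right one.

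The width at the 5′ end was set beside that of the other regions. Over the 8 libraries the highest Pearson correlations of log2(covered bp + 200) with the 5′ end were 0.81 for the region 670 kb upstream, 0.70 for the one 254 kb downstream and 0.65 for the one 260 kb downstream. Control library 1 was low or lacked a peak at all of them, and without it the values were 0.27, 0.54 and -0.55. Without it the highest were instead 0.82 for the region 837 kb upstream and 0.73 for the one 435 kb upstream, which were 0.49 and 0.38 with it and were singled out after their values were seen. All are a description.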

How the data were processed

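Each library has its own peak list from the authors, called sample by sample. The submitters' processing notes name build mm9 and the tools deepTools 3.0.2, MACS2 2.1.1.20160309.0, Bowtie2 2.3.4.2 and SAMtools, with no role for any. The sources used here do not give caller settings or the use of an input library. For every peak the deposited columns hold a score, a fold enrichment (a ratio to background), and −log10 values of p and q. Depth is unknown and can affect the number and width of peaks, so a region without a peak is not shown to lack acetylation.

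Overlapping peaks (1 bp or more) from the 8 lists were merged, and covered bp were summed per region and library. Limma 3.58.1 in R 4.3.3 (empirical Bayes with a trend, a mean per group) was fitted on log2(covered bp + 200) over 28146 regions, a scale that understates changes of short peaks. Interval totals were tested by exact permutation over all 70 assignments. Fold percentiles are ranks within a list. Interval and model steps were tested on simulated data. Python 3.11.15 with NumPy 2.4.6, pandas 2.3.3 and matplotlib 3.10.9 served for the rest.

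The interval, its members and the lists were chosen with earlier results of these data known. Named regions are the one over the 5′ end; those called, gained or lost; the 5 widest and the 5 most enriched by mean within-list percentile; the outermost with a peak in all libraries; and the 3 most like the first. The regions 354 kb upstream and 278 kb downstream, and the weakest ones found in few libraries, fall outside this rule and were also named. Planned marker and neighbour lists need an mm9 annotation and were not analysed here. The alternatives tried were a score above the pooled median, equal list lengths, other pseudocounts, filters, merging and overlap rules, quantile normalization, a block for the replicate number and the omission of single libraries. The count of regions lost by presence was rerun under alternatives chosen after seeing the data.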

Additional observations from a re-analysis of the deposited data

How the results depend on the processing

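With 2 libraries a group, unknown depth and weak peaks, most outcomes near the threshold moved with the setting. Of 16 tested regions (5 with stricter scores, 20 with no filter, 12 with a peak in at least 4 libraries, and 15 on lists of equal length, with 50% of a region covered or without either control library 2 or library 2 of knockdown with EGF), calls were, for EGF against control in intact cells, 0 as planned, 1 with stricter scores (above the pooled median of 40), 4 on lists of equal length, 2 after quantile normalization and 1 with 50% of the region covered (6.27%, 6.20%, 4.2% and 7.54% of all regions, against 3.95% as planned). For EGF in knockdown cells there was 1 lower call as planned. Stricter scores and equal length gave 2 each, 1 higher and 1 lower (7.64% and 6.65% of all, against 6.62%). Of these, only equal length kept the planned call. A pseudocount of 1000 bp or 50% covered gave 0 (5.85% and 9.51%). The mean EGF effect gave 0 as planned and 3, 5, 5, 1 and 1 with stricter scores, equal length, quantile normalization, a pseudocount of 50 bp and 50% covered (12.3%, 13.9%, 10.9%, 13.8% and 13.8%, against 13.0%). Knockdown without EGF gave 0 as planned and 1 and 1 with stricter scores and equal length (4.65% and 2.57%, against 1.37%); knockdown under EGF gave 0 and 2, 1, 1 and 1 with equal length, quantile normalization, 50 bp and 50% covered (2.08%, 0.632%, 1.80% and 4.10%, against 0.661%). The mean knockdown effect gave 0 and 1, 1, 1 and 1 with stricter scores, quantile normalization, 50 bp and 50% covered (7.61%, 0.934%, 3% and 9.07%, against 0.352%), and the interaction 0 and 1 and 1 with stricter scores and 50% covered (5.57% and 8.08%, against 0%). No filter, a filter of 4 libraries and merging within 1000 bp gave the planned counts. Leaving out 1 library gave 0 to 6, 0 to 1, 0 to 7, 0 to 3, 0 to 4, 0 to 4 and 0 to 3 calls in the same order of comparisons, the highest without control library 2 apart from the second. Without control library 2 the share called over all regions also rose in every comparison. Each such fit leaves 1 library in a group, so these counts are a description only. Regions lost by presence under EGF were 4 of 20 as planned (2.34% of all regions) and 3 of 20 with 50% covered (2.85%). They were 4 of 16 on lists of equal length (2.69%) and 4 of 19 with merging within 1000 bp (2.43%). With stricter scores, which no peak of the 4 regions passes, 0 of 8 were lost (1.19%). Without 1 EGF-treated library they were 4 to 5 of 20 (3.35% to 5.29%).

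Stricter scores, which left library totals with few peaks, turned the knockdown difference in covered length to 1451 bp (exact permutation p = 0.543) and in share to 0.00183 percentage points (exact permutation p = 0.857). They raised the EGF difference in share to 0.0187 points (exact permutation p = 0.0286). No near share could be computed, as 1 or more libraries had no peak left. At the 5′ end they made the EGF difference in knockdown cells 3.53. This is fixed by the limit, which all EGF-treated and no vehicle peaks pass there. Without 1 library the EGF difference in covered length was -364 to 4004 bp, negative without control library 1, and the knockdown difference in share -0.0194 to -0.00693 points. The EGF difference in intact cells was -0.076 (without control library 1) to 0.69 at the 5′ end and -0.21 to 0.75 at 435 kb upstream. The causes were not tested. Quantile normalization moved the median EGF difference over all regions from -0.14 to 0.04 in intact and from -0.32 to 0.08 in knockdown cells.

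The labels tie no replicate number to a culture or batch. Deviations of same-numbered libraries correlated at -0.01 to 0.03 over 28146 regions, negative in 1 of 6 group pairs. A replicate block left the calls around Sox9 as they were, 1 for EGF in knockdown cells. Over all regions it gave 1176 against 1864 calls in that comparison and 0 against 1111 for EGF in intact cells. For knockdown it gave 0 against 385 without EGF and 0 against 186 under EGF.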

Other observations

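The weakest peaks of the interval were found in few libraries. A peak in a single library was present 698 kb upstream (501 bp, EGF library 2), 364 kb upstream (367 bp, control library 2), 263 kb downstream (1195 bp, library 2 of knockdown with EGF) and 283.3 kb downstream (273 bp, EGF library 1). Their folds were 3.23, 3.18, 3.10 and 3.07. A further region 282.6 kb downstream had peaks of 391 bp in control library 2 and 439 bp in library 2 of knockdown with EGF. The region 254 kb downstream had peaks in 6 libraries, with 0 and 1002 bp in control, 1018 and 565 bp with EGF, 268 and 1397 bp with knockdown, and 0 and 200 bp in knockdown with EGF, a spread within groups as wide as that between them. At 670 kb upstream 7 libraries had a peak of 628 to 1271 bp, all but control library 1.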
